A study of Mus musculus with 19 samples.

Results

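Cholesterol synthesis and its control by the SREBP transcription factors were followed in kidneys of fasted and ad libitum fed mice. A list of 31 genes was used, written in the order of the pathway: 8 of the mevalonate branch, 12 of the squalene and sterol branch, 7 of SREBP control and 4 of sterol transport and storage. Of these, 27 had a named probe set among the 17097 genes that could be named on the arrays, whereas Acat2, Pmvk, Srebf1 and Soat1 had none and were not analysed here. Each gene was read at its brightest probe set naming that gene alone. Values are log2 levels from Affymetrix microarrays (HT MG-430 PM), made from kidney RNA of 19 male mice that underwent no renal IRI, each mouse having its own array. The fasted aged-overweight group held 5 mice without food but with water for 3 days and the ad libitum fed aged-overweight group 5 mice. These were F1 hybrids of FVB and C57BL/6J, 73 weeks old on average and weighing about 47 g. The fasted young-lean group held 4 mice, also fasted for 3 days, and the ad libitum fed young-lean group 5 mice, which were C57BL/6J mice aged 10 to 14 weeks that weighed 22 to 25 g. Age, strain and body weight therefore changed together and cannot be told apart, nor from the normalization, which seems to have been done separately for each age. Each weight is given for fasted and ad libitum fed mice alike, so it does not show weight lost by fasting.

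Cells make cholesterol from acetyl-CoA through mevalonate, isoprenoid diphosphates, squalene and lanosterol. When sterols are scarce in the endoplasmic reticulum, SCAP escorts the precursor of SREBP2 to the Golgi, where the proteases encoded by Mbtps1 and Mbtps2 cut it, and the freed part enters the nucleus and switches on genes of the pathway. When sterols are plentiful, INSIG proteins hold SCAP and the precursor back. The arrays measured RNA only, so neither cleavage of SREBP2 nor the sterols themselves were seen. In RNA of a whole kidney, fewer cells of a type and less RNA per cell cannot be told apart.

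Array medians were 3.46 to 3.49 in fasted aged, 3.44 to 3.48 in ad libitum fed aged, 4.18 to 4.21 in fasted young and 4.15 to 4.19 in ad libitum fed young mice, so levels were set side by side within an age only. Kidney markers were high on every array, with median log2 levels of 10.5 to 11.3 for 4 proximal tubule markers and 11.3 to 12.4 for 3 markers of the thick ascending limb. Markers of the adrenal cortex, a tissue rich in these enzymes, had medians over 5 genes of 2.82 to 3.49, and 0 of the 5 rose or fell at either age. Hepatocyte markers were uneven: the median of 6 genes was 9.82 in fasted aged mouse 33, against 4.89 to 6.10 in the other 4 fasted aged mice and 4.61 to 6.41 in ad libitum fed aged mice. In the young mice it was 8.31 in fasted mouse 339, 5.80 to 6.64 in the other 3 fasted mice and 5.34 to 7.56 in ad libitum fed mice. Adipocyte markers were uneven too. In aged mice the brown adipocyte median was 3.30 to 6.475 (fasted) and 3.76 to 6.62 (ad libitum fed). The white adipocyte median was 2.38 to 5.69 in fasted aged, 3.22 to 4.75 in ad libitum fed aged and 3.49 to 6.32 in fasted young mice. It was 4.365 to 5.09 in ad libitum fed young mice. Results that change without mouse 33 or mouse 339 are given with and without them.

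Many enzymes of the pathway were lower in fasted than in ad libitum fed kidneys at both ages, with Idi1 the largest change at either age. The words rose and fell are kept for changes whose adjusted p was 0.05 or less. In aged kidneys 9 of 27 genes fell, 2 rose and 16 did not pass, whereas 4.84% of all 17097 genes fell and 4.32% rose (9.16% in all). In young kidneys 16 of 27 fell, 1 rose and 10 did not pass, whereas 12.5% of all genes fell and 10.7% rose (23.2% in all). With a fold change of at least 1.5 required as well, 6 fell and 1 rose in aged kidneys (1.28% and 1.39% of all genes) and 8 fell and 1 rose in young kidneys (3.53% and 2.95% of all genes). The median log2 fold change over the 27 genes was -0.22 in aged and -0.32 in young kidneys, against -0.01 over all genes at either age. The 2 diets had no overlapping values for 10 genes in aged and 17 in young kidneys, which was the case for 10.2% and 21.3% of all genes.

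Of the 18 synthesis enzymes measured, 8 fell and 2 rose in aged kidneys, and 12 fell and 1 rose in young kidneys, with median log2 fold changes of -0.39 and -0.49. Of the 6 genes of SREBP control 1 fell in aged and 3 fell in young kidneys, and of the 3 transport genes 0 fell in aged and 1 fell in young kidneys. A total of 9 genes fell at both ages: Mvk, Mvd, Idi1, Sqle, Lbr, Msmo1, Nsdhl, Dhcr7 and Mbtps1. Only Ebp among the 27 rose at both ages. Lss rose in aged kidneys and did not pass in young ones. Fdps, Cyp51, Hsd17b7, Sc5d, Insig1, Srebf2 and Stard4 fell in young kidneys and did not pass in aged ones. For 0 genes did the calls run in opposite directions.

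**Figure D1:**
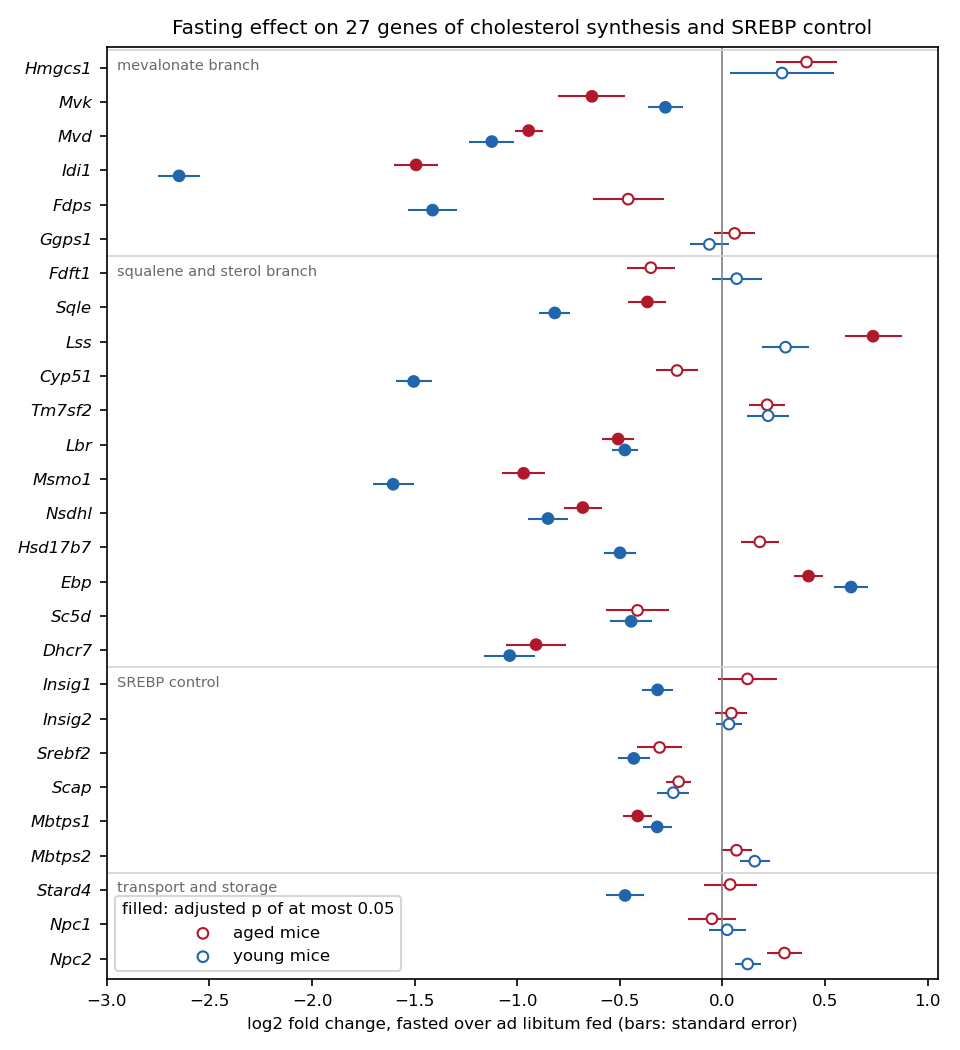
The log2 fold change of fasted over ad libitum fed mice (x axis) is plotted for 27 genes in pathway order (rows), with red for aged and blue for young mice, bars for the standard error and filled points for changes that passed the test. Most enzymes lie left of 0 at both ages, while the enzymes Ebp, Lss, Hmgcs1 and Tm7sf2 lie to the right at both. So do Insig2, Mbtps2 and Npc2 of the other genes. The lowest point is Idi1 in young mice at -2.65.

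Promoters were available from RefSeq (build GRCm38.p6) for 22 of the 27 genes, from 250 bases before to 50 bases after the transcript start. The 150 bases before the start are printed for 6 genes picked after their values were seen: Idi1, Mvd and Msmo1, which fell at both ages, Cyp51, which fell in young kidneys and did not pass in aged ones, Ebp, which rose, and Hmgcs1, which did not pass. They lie at chr13:8885456-8885605 (+ strand, Idi1), chr8:122443423-122443572 (- strand, Mvd), chr8:64733579-64733728 (- strand, Msmo1), chr5:4104698-4104847 (- strand, Cyp51), chrX:8193513-8193662 (- strand, Ebp) and chr13:119690201-119690350 (+ strand, Hmgcs1). Each reads 5′ to 3′ along the strand of its gene. Capitals mark matches on either strand to CCAAT, the box bound by NF-Y, to GGGCGG, the GC box bound by SP1 family factors, and to TCACNCCAC, a form of the sterol regulatory element.
Idi1: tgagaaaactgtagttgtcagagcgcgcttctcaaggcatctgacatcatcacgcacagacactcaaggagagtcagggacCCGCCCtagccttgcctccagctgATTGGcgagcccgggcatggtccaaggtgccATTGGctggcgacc
Mvd: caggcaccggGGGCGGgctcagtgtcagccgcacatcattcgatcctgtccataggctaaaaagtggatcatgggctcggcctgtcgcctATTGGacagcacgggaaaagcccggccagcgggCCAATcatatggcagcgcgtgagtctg
Msmo1: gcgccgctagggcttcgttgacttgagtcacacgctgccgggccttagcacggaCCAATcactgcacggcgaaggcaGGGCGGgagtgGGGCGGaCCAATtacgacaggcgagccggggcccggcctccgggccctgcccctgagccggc
Cyp51: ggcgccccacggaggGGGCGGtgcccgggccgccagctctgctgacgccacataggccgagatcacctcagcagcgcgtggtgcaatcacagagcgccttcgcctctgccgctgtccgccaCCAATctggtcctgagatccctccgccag
Ebp: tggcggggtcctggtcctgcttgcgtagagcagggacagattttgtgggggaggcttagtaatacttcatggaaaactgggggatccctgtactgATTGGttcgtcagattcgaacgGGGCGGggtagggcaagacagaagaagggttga
Hmgcs1: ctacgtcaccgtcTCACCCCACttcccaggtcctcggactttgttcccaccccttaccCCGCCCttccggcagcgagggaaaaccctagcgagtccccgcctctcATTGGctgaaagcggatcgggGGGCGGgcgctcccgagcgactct
From 250 bases before to 50 after any listed start of a gene, a CCAAT match lay in 19 of the 22 genes (86.4%), against 42.3% of 13605 genes on the arrays that had a promoter. A GGGCGG match lay in 20 of 22 (90.9%), against 57.3%. By whether a fall passed the test, CCAAT stood in 7 of 8 genes with a fall that passed at both ages, in 5 of 5 where it passed in young kidneys alone and in 7 of 9 where it passed at neither age. TCACNCCAC was found for 1 of 22, Hmgcs1, whose match starts at position -137 from the transcript start (1.5% of genes on the arrays), and TCACGTGA, the E-box form searched, for 0 of 22 (1.67%). No 2 matches of different motifs overlapped. These are matches of letters in a short window, and what binds there was not measured. Other forms of the sterol regulatory element were not searched, so genes without a match are not shown to lack one.

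The mevalonate branch held the largest change of the pathway. Idi1 encodes the isomerase that turns isopentenyl diphosphate into dimethylallyl diphosphate, the starter unit of all isoprenoids. Its log2 level was 8.23, 7.92, 8.05, 7.94 and 8.17 in fasted aged mice, against 9.20, 9.79, 9.55, 9.60 and 9.64 in ad libitum fed aged mice, and 8.82, 8.61, 8.89 and 8.38 in fasted young mice, against 11.24, 11.36, 11.25, 11.51 and 11.25 in ad libitum fed young mice. Every fasted mouse lay below every ad libitum fed mouse of its age. The log2 fold change was -1.49 ± 0.11 in aged kidneys (SE, n = 5 and 5, adjusted p = 5.84e-06), 2.81-fold lower in fasted mice, and -2.65 ± 0.10 in young kidneys (SE, n = 4 and 5, adjusted p = 8.78e-08), 6.27-fold lower. The aged effect was 1.16 ± 0.15 above the young one (SE, adjusted p = 0.000484). The other probe set of Idi1 gave -1.67 in aged and -2.71 in young kidneys and also passed the test of the difference. The Idi1 promoter shown above carries 2 CCAAT matches on the opposite strand, which start at positions -45 and -14.

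Mvd encodes the decarboxylase that makes isopentenyl diphosphate, just upstream of Idi1 in the pathway. Its levels were 5.96, 6.02, 5.92, 5.78 and 5.97 in fasted aged mice, against 6.81, 6.89, 6.996, 6.80 and 6.88 in ad libitum fed aged mice, and 6.01, 6.28, 5.79 and 6.04 in fasted young mice, against 6.87, 7.27, 7.28, 7.10 and 7.26 in ad libitum fed young mice. The diets were fully apart at both ages. The fall was close to 1 log2 unit at each age, with -0.94 ± 0.07 in aged (adjusted p = 6.18e-06) and -1.12 ± 0.11 in young kidneys (adjusted p = 3.77e-05). The difference of 0.18 between the ages had a 95% interval of -0.09 to 0.45 (adjusted p = 0.615). Both probe sets of Mvd fell at both ages.

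Fdps encodes farnesyl diphosphate synthase, which makes the last intermediate shared by sterols and other isoprenoids. It was at 6.10, 5.70, 5.35, 5.54 and 5.71 in fasted aged mice, against 6.20, 6.11, 6.54, 5.54 and 6.29 in ad libitum fed aged mice, and at 4.89, 5.02, 4.52 and 4.67 in fasted young mice, against 6.16, 6.10, 6.30, 5.93 and 6.44 in ad libitum fed young mice. The aged groups overlapped, since ad libitum fed mouse 40 was as low as the fasted mice, while the young groups were apart by nearly a log2 unit. The change was -0.46 ± 0.17 in aged kidneys (adjusted p = 0.160), where it passed without mouse 40 (adjusted p = 0.0207), and -1.41 ± 0.12 in young kidneys (adjusted p = 1.45e-05). The difference between the ages was 0.95 ± 0.23 (adjusted p = 0.0354) and it missed the threshold without any 1 of fasted aged mice 38 and 42, ad libitum fed aged mice 34 and 36, fasted young mice 343 and 344 or ad libitum fed young mice 346, 347, 348 and 350 (adjusted p = 0.0509 to 0.0773).

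Mvk encodes mevalonate kinase, the first kinase after mevalonate. It fell by 0.64 ± 0.16 on the log2 scale in aged kidneys (adjusted p = 0.0367) and by 0.28 ± 0.09 in young kidneys (adjusted p = 0.0396), both close to the threshold. Its aged values were 5.81, 5.41, 5.39, 5.14 and 4.99 in fasted mice, against 6.02, 5.74, 5.70, 6.45 and 5.99 in ad libitum fed mice, with fasted mouse 33 inside the ad libitum fed range. The aged call was lost without any 1 of fasted mice 38, 39, 41 and 42 or ad libitum fed mice 34, 40 and 43 (adjusted p = 0.0556 to 0.0983), and the young call without any 1 of fasted mice 343 and 344 or ad libitum fed mice 346, 348 and 349 (adjusted p = 0.0554 to 0.103). Its dimmer probe set did not pass, at -0.41 in aged (adjusted p = 0.0581) and -0.07 in young kidneys (adjusted p = 0.806). Hmgcs1, which encodes the cytosolic enzyme that makes HMG-CoA at the entry of the pathway, did not pass, with 0.41 ± 0.15 in aged (adjusted p = 0.140) and 0.29 ± 0.26 in young kidneys (adjusted p = 0.517). Its ad libitum fed young mice were spread from 6.13 to 7.68, wider than the fasted young mice at 6.74 to 7.26, and without ad libitum fed mouse 349 the change passed (adjusted p = 0.0350). Ggps1, which makes geranylgeranyl diphosphate for protein prenylation on a side branch, was at 0.06 ± 0.10 in aged and -0.06 ± 0.09 in young kidneys, with intervals of -0.16 to 0.27 and -0.27 to 0.14.

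At the entry to the sterol branch, Fdft1, which encodes squalene synthase, passed at neither age. Its change was -0.35 ± 0.12 in aged kidneys (adjusted p = 0.106) and 0.07 ± 0.12 in young kidneys (adjusted p = 0.781). Fasted aged mouse 33 was the highest of its group at 7.03, the other 4 being at 6.37 to 6.77 against 6.91 to 7.24 in ad libitum fed aged mice, and without it Fdft1 fell (log2 fold change -0.44, adjusted p = 0.0202). Sqle, the squalene epoxidase, fell at both ages. It was at 7.57, 7.80, 8.01, 7.64 and 7.91 in fasted aged mice, against 8.12, 8.004, 8.22, 8.28 and 8.13 in ad libitum fed aged mice, and at 8.31, 8.23, 8.15 and 8.33 in fasted young mice, against 8.85, 9.13, 9.16, 9.11 and 9.13 in ad libitum fed young mice. The aged groups touched at 1 mouse each, and the young groups were clearly apart. The change was -0.37 ± 0.09 in aged (adjusted p = 0.0344) and -0.82 ± 0.08 in young kidneys (adjusted p = 2.64e-05). The aged call was lost without mouse 33 (adjusted p = 0.0636) and without any 1 of fasted mice 38 and 41 or ad libitum fed mice 34, 37, 40 and 43 (adjusted p up to 0.0946). The difference of 0.45 between the ages did not pass (adjusted p = 0.0623), although it did without mouse 33, ad libitum fed aged mouse 40 or ad libitum fed young mouse 346 (adjusted p = 0.0312 to 0.0459).

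Lss encodes lanosterol synthase, which closes squalene epoxide into the first sterol. It rose in aged kidneys, with 4.67, 4.82, 4.96, 4.47 and 4.18 in fasted mice, against 4.10, 3.66, 3.85, 4.04 and 3.78 in ad libitum fed mice, a 1.66-fold change (log2 fold change 0.73 ± 0.14, adjusted p = 0.00714). The groups did not overlap, but the ad libitum fed values lay close to the median of all probe sets on their arrays. In young kidneys it was at 5.67, 5.59, 5.17 and 5.17 in fasted mice, against 4.87, 5.17, 5.08, 5.17 and 5.17 in ad libitum fed mice, and did not pass (0.31 ± 0.12, adjusted p = 0.0894), although it did without fasted mouse 343 or 344 (adjusted p = 0.0484 and 0.0498). Only fasted mice 339 and 340 stood above the ad libitum fed mice. The difference between the ages was 0.43 with an interval of 0.02 to 0.83 before adjustment (adjusted p = 0.331).

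Cyp51, the lanosterol demethylase, had the largest difference between the ages among the 27 genes. Its level was 8.85, 9.27, 8.70, 8.82 and 9.04 in fasted aged mice, against 9.13, 9.17, 9.21, 9.03 and 9.24 in ad libitum fed aged mice. In young kidneys it was 8.88, 9.15, 9.27 and 8.98 in fasted mice, against 10.58, 10.47, 10.61, 10.74 and 10.48 in ad libitum fed mice. The highest of all aged mice was thus a fasted one, whereas the young groups were more than 1 log2 unit apart. The change was -0.22 ± 0.10 in aged kidneys (adjusted p = 0.259) and -1.505 ± 0.09 in young kidneys (adjusted p = 1.03e-06), 2.84-fold lower in fasted mice. The difference of 1.28 ± 0.14 passed (adjusted p = 4.23e-05). Of its 3 probe sets 0 passed in aged kidneys (-0.22 to -0.15) and all 3 fell in young kidneys (-2.09 to -1.505), and the difference passed for 3 of 3.

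Of the reductases and demethylation enzymes that follow, Msmo1, the sterol methyl oxidase, changed most. It was at 7.51, 7.02, 7.16, 7.13 and 6.90 in fasted aged mice, against 8.03, 8.25, 8.18, 8.02 and 8.07 in ad libitum fed aged mice, and at 7.89, 8.11, 8.07 and 7.84 in fasted young mice, against 9.46, 9.52, 9.66, 9.41 and 9.87 in ad libitum fed young mice. The diets were apart at both ages, with mouse 33 the highest of the fasted aged mice. The fall was 1.96-fold in aged (-0.97 ± 0.10, adjusted p = 0.000144) and 3.04-fold in young kidneys (-1.60 ± 0.10, adjusted p = 1.69e-06). Its other probe set, dim at a mean level of 2.82, did not pass, at -0.07 in aged and -0.14 in young kidneys, and the mean of both gave -0.52 and -0.87, which passed. The aged effect was 0.64 ± 0.15 above the young one (adjusted p = 0.0313), a call lost without mouse 339 (adjusted p = 0.0625) or any 1 of fasted aged mouse 41, ad libitum fed aged mouse 34, fasted young mouse 344 and ad libitum fed young mice 348 and 350 (adjusted p = 0.0507 to 0.0756). The paper measured this gene, under the name Sc4mol, by qRT-PCR as well and reported decreases of similar size at both ages.

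Nsdhl, the dehydrogenase that acts after Msmo1, fell to 9.06, 9.09, 8.77, 8.73 and 9.04 in fasted aged mice, against 9.46, 9.67, 9.55, 9.62 and 9.80 in ad libitum fed aged mice (-0.68 ± 0.09, adjusted p = 0.000928). In young kidneys it fell to 7.92, 7.98, 7.80 and 7.77 in fasted mice, against 8.90, 8.61, 8.73, 8.46 and 8.90 in ad libitum fed mice (-0.85 ± 0.10, adjusted p = 0.000109). No values of the 2 diets overlapped at either age. Hsd17b7, the keto-reductase that completes this demethylation cycle, was at 6.13, 6.24, 6.36, 6.02 and 5.98 in fasted aged mice, against 6.12, 6.00, 5.97, 5.74 and 5.99 in ad libitum fed aged mice, and at 6.41, 6.45, 6.39 and 6.33 in fasted young mice, against 6.64, 7.01, 6.87, 7.04 and 6.91 in ad libitum fed young mice. Its change was 0.18 ± 0.09 in aged kidneys (adjusted p = 0.315), and it fell in young kidneys (-0.50 ± 0.08, adjusted p = 0.00110). The difference of 0.68 ± 0.12 passed (adjusted p = 0.00597). Of its 3 probe sets 2 fell in young kidneys and the difference passed for 1, and the mean of the 3 gave -0.28 in young kidneys and a difference of 0.39, which both passed.

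Lbr and Tm7sf2 both encode sterol reductases, of which the product of Lbr is also a lamin receptor of the inner nuclear membrane. Lbr fell by similar amounts, -0.51 ± 0.08 in aged (adjusted p = 0.00194) and -0.48 ± 0.07 in young kidneys (adjusted p = 0.000403), with a difference of -0.03 and an interval of -0.24 to 0.18. Fasted aged mice were at 7.21 to 7.39, against 7.63 to 7.95 in ad libitum fed aged mice, and fasted young mice at 8.20 to 8.39, against 8.62 to 8.84 in ad libitum fed young mice. Tm7sf2 had a positive change of 0.22 at both ages that did not pass (adjusted p = 0.191 in aged and 0.177 in young kidneys).

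The last 3 enzymes shift, add or saturate double bonds of the sterol ring. Ebp, the isomerase, was at 9.72, 9.73, 9.54, 9.64 and 9.64 in fasted aged mice, against 9.23, 9.23, 9.10, 9.39 and 9.22 in ad libitum fed aged mice, and at 10.03, 10.30, 9.93 and 9.93 in fasted young mice, against 9.47, 9.49, 9.43, 9.31 and 9.39 in ad libitum fed young mice. It rose with no overlap of the diets, by 0.42 ± 0.07 in aged (adjusted p = 0.00334) and 0.63 ± 0.08 in young kidneys (adjusted p = 0.000268), while Nsdhl and Dhcr7 fell. Its promoter, printed above, holds a CCAAT and a GGGCGG match as those of Mvd and Cyp51 do. Dhcr7, the reductase of the final step to cholesterol, fell to 5.39, 4.99, 5.34, 5.19 and 5.04 in fasted aged mice, against 6.37, 6.03, 6.27, 6.29 and 5.54 in ad libitum fed aged mice (-0.91 ± 0.15, adjusted p = 0.00271). In young kidneys it fell to 5.57, 5.21, 5.13 and 5.60 in fasted mice, against 6.13, 6.36, 6.65, 6.56 and 6.36 in ad libitum fed mice (-1.04 ± 0.13, adjusted p = 0.000173). The diets did not overlap at either age, and in aged kidneys they came close only through ad libitum fed mouse 43. Sc5d, the desaturase before Dhcr7, had an aged change of -0.41 ± 0.15 (adjusted p = 0.148) that passed without mouse 33 (-0.57, adjusted p = 0.00619), which was at 7.21 beside 6.30 to 6.66 in the other 4 fasted aged mice, and it fell in young kidneys (-0.44 ± 0.10, adjusted p = 0.00920). Its second brightest probe set gave -0.59 in aged (adjusted p = 0.0665) and -1.33 in young kidneys (adjusted p = 7.55e-05), and its dimmest -0.09 (adjusted p = 0.669) and -0.24 (adjusted p = 0.100), so the size of the young change depends on the probe set.

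**Figure D2:**
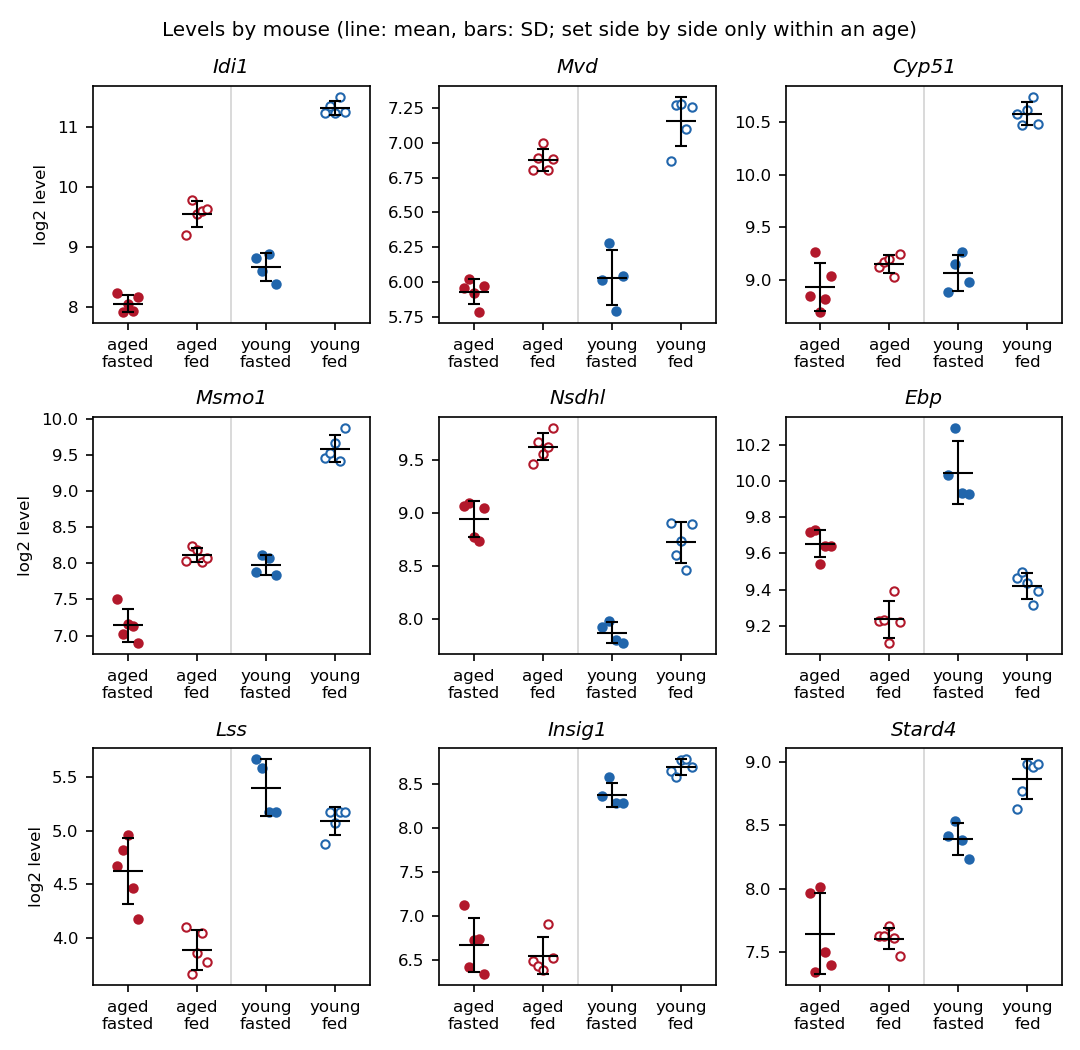
Log2 levels (y axis) are plotted by mouse for 9 genes chosen after their values were seen, in fasted and ad libitum fed aged (red) and young mice (blue), with filled points for fasted mice, a line for the mean and bars for the SD. For Idi1, Mvd, Msmo1 and Nsdhl all fasted mice lie below all ad libitum fed mice of their age, for Ebp all lie above, and for Cyp51, Insig1 and Stard4 the aged groups overlap.

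Changes among the genes of SREBP control were small, and 0 of 6 passed with a 1.5-fold change. Over all genes 1.39% rose and 1.28% fell with that fold change in aged kidneys, and 2.95% rose and 3.53% fell in young kidneys. The count of 0 is therefore not read as a result about these genes. Srebf2, which encodes SREBP2, was at 5.70, 5.59, 6.05, 5.89 and 5.76 in fasted aged mice, against 6.17, 6.03, 6.27, 6.25 and 5.80 in ad libitum fed aged mice, and at 5.17, 5.46, 5.48 and 5.43 in fasted young mice, against 5.71, 5.88, 5.87, 5.90 and 5.70 in ad libitum fed young mice. The aged groups overlapped and the young groups were apart. The change was -0.31 ± 0.11 in aged kidneys (adjusted p = 0.131, and 0.0489 without ad libitum fed mouse 43), and it fell in young kidneys (-0.43 ± 0.08, adjusted p = 0.00255). Its dimmer probe set fell at both ages, by 0.39 in aged and 0.41 in young kidneys.

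Insig1, itself a sterol-responsive gene whose product retains SCAP, was at 7.12, 6.42, 6.73, 6.74 and 6.34 in fasted aged mice, against 6.49, 6.42, 6.38, 6.91 and 6.52 in ad libitum fed aged mice, and at 8.36, 8.57, 8.28 and 8.29 in fasted young mice, against 8.64, 8.57, 8.77, 8.79 and 8.69 in ad libitum fed young mice. It stood at 0.12 ± 0.14 in aged kidneys (adjusted p = 0.733) and fell in young kidneys by a small amount (-0.32 ± 0.08, adjusted p = 0.0122), a call lost when all 19 arrays shared 1 fit (adjusted p = 0.104). Its relative Insig2 lay at 0.04 ± 0.08 in aged and 0.03 ± 0.06 in young kidneys, with intervals of -0.13 to 0.21 and -0.11 to 0.17, and its 3 probe sets all stayed between -0.07 and 0.06.

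Mbtps1, the protease that makes the first cut in SREBP precursors, fell at both ages. It was at 7.38 to 7.60 in fasted aged mice, against 7.77 to 7.97 in ad libitum fed aged mice (-0.41 ± 0.07, adjusted p = 0.00397), and at 8.09 to 8.42 in fasted young mice, against 8.55 to 8.66 in ad libitum fed young mice (-0.32 ± 0.07, adjusted p = 0.00848). The call belongs to 1 of its 3 probe sets, the other two being dim at mean levels of 3.77 and 3.45, and it was lost in the mean of the 3 (adjusted p = 0.858 in aged and 0.0714 in young kidneys). Mbtps2, the protease of the second cut, was at 0.07 ± 0.07 and 0.16 ± 0.07 in aged and young kidneys and did not pass (adjusted p = 0.703 and 0.170). Scap narrowly missed the threshold at both ages, at -0.21 ± 0.06 in aged (adjusted p = 0.0605) and -0.24 ± 0.08 in young kidneys (adjusted p = 0.0540), although its diets did not overlap at either age. Without fasted young mouse 344 or ad libitum fed young mouse 350 it passed in young kidneys (adjusted p = 0.0460 to 0.0494).

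Among the transport genes Stard4, which encodes a soluble sterol carrier, was at 7.96, 7.34, 8.01, 7.50 and 7.40 in fasted aged mice, against 7.62, 7.62, 7.70, 7.61 and 7.47 in ad libitum fed aged mice, and at 8.42, 8.54, 8.38 and 8.23 in fasted young mice, against 8.63, 8.77, 8.99, 8.96 and 8.98 in ad libitum fed young mice. The fasted aged mice were spread on both sides of the ad libitum fed ones. The change was 0.04 ± 0.13 in aged kidneys (adjusted p = 0.924), and Stard4 fell in young kidneys (-0.47 ± 0.09, adjusted p = 0.00335). Its other 2 probe sets gave -0.64 and -1.41 in young kidneys, and both passed. The difference of 0.51 ± 0.17 did not pass at the brightest probe set (adjusted p = 0.137), while it passed at the other 2 probe sets, with 0.77 (adjusted p = 0.00878) and 1.54 (adjusted p = 0.000147). Npc1 and Npc2 encode the proteins that export cholesterol from lysosomes. Npc1 lay at -0.05 ± 0.12 in aged and 0.02 ± 0.09 in young kidneys. Npc2 had a positive change in aged kidneys that fell just short (0.30 ± 0.08, adjusted p = 0.0501), with ad libitum fed mouse 40 at 10.32 among fasted mice at 10.24 to 10.39 and the other 4 ad libitum fed mice at 9.92 to 10.02. Without mouse 40 it passed (adjusted p = 0.00371), as did its second brightest probe set with all mice (0.26, adjusted p = 0.0360), and in young kidneys it was at 0.12 ± 0.06 (adjusted p = 0.231).

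**Figure D3:**
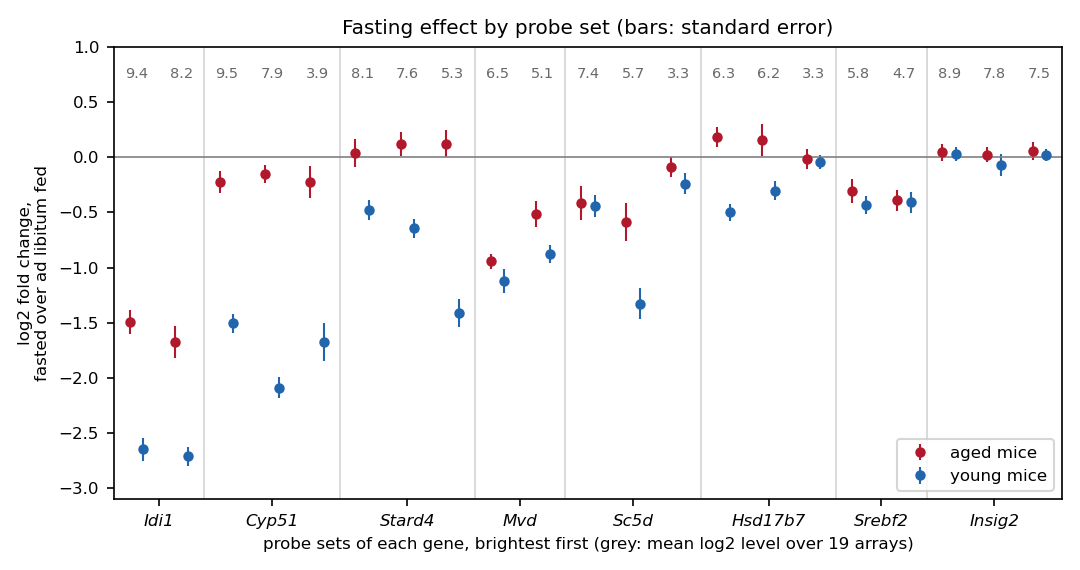
The log2 fold change of fasted over ad libitum fed mice (y axis) is plotted for each probe set of 8 genes chosen after their values were seen (x axis, brightest first, with the mean log2 level over 19 arrays in grey), red for aged and blue for young mice, with bars for the standard error. The 3 probe sets of Cyp51 and of Stard4 all place the young change below the aged one, those of Insig2 lie at 0, and the dimmest probe sets of Sc5d and Hsd17b7 lie nearer 0 than the others.

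The test of the difference between the ages, aged minus young, passed for 5 of the 27 genes: Cyp51, Idi1, Fdps, Hsd17b7 and Msmo1. All 5 were positive, which means a change in aged kidneys above that in young kidneys, namely a smaller fall for Idi1 and Msmo1, while Cyp51, Fdps and Hsd17b7 fell in young kidneys and did not pass in aged ones; over all genes 1.55% were positive and 0.895% negative, 2.44% in all. The count was 6 without mouse 33 and 4 without mouse 339. It was 3 without aged ad libitum fed mouse 34, young fasted mouse 344, young ad libitum fed mouse 348 or young ad libitum fed mouse 350. The difference was above 0 for 19 of the 27 genes and had a median of 0.13, against 0.0007 over all genes. The share of all genes above 0 was not counted. Of the 9 genes that fell at both ages, 6 fell further in young kidneys, and Idi1 and Msmo1 among them passed the test of the difference.

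By the median over the enzymes, mice within a group were alike except for fasted aged mouse 33. The median deviation of the 18 enzymes from the mean of the ad libitum fed mice of the same age was -0.48, -0.39, -0.47 and -0.50 log2 units in fasted aged mice 38, 39, 41 and 42 and -0.11 in fasted aged mouse 33. In fasted young mice it was -0.59, -0.49, -0.51 and -0.53, and mouse 339, high in hepatocyte markers, lay with the others. Ad libitum fed mice stayed between -0.01 and 0.02 (aged) and between -0.09 and 0.06 (young). A count set mouse 33 less apart: 11 of the 18 enzymes lay below the ad libitum fed mean in it, as in mouse 38. Over the 9 genes that fell at both ages the median deviation of mouse 33 was -0.58, against -0.59 in mouse 38 and -0.76 to -0.90 in mice 39, 41 and 42. These 9 genes were picked by tests that included mouse 33, so this value cannot show how far apart mouse 33 lies. Mouse 33 was the highest of the 5 fasted aged mice for 11 of the 27 genes, Sc5d, Fdft1, Insig1 and Fdps among them, and the lowest for 3. Fasted young mouse 340 was the highest of its group for 12, ad libitum fed young mouse 349 for 11, and fasted young mouse 343 the lowest for 11. The part of its hepatocyte markers in these values was not tested. The falls of Idi1, Mvd, Msmo1, Nsdhl, Lbr and Dhcr7 in aged kidneys also passed without it, and the count of genes that fell was then 10.

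**Figure D4:**
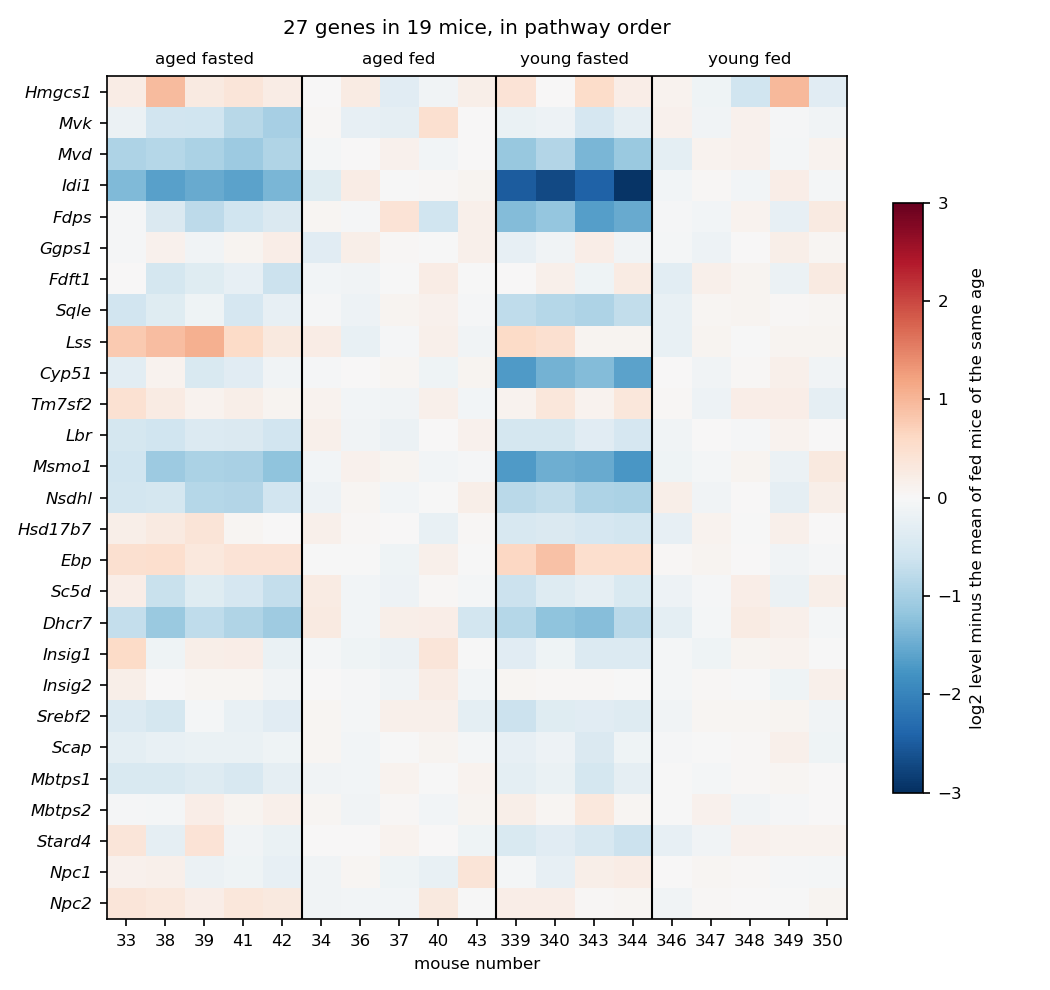
Each cell shows the log2 level of a gene (rows, pathway order) in 1 of 19 mice (columns, by mouse number and group) minus the mean of the ad libitum fed mice of the same age, blue below and red above 0. Idi1 is the darkest blue row in all fasted mice, Cyp51 is dark in fasted young mice and pale in fasted aged mice, Ebp is red in fasted mice of both ages, and mouse 33 is paler than the other fasted aged mice for several enzymes.

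Other genes linked to the pathway were followed in 5 lists. Over all genes 4.84% fell and 4.32% rose in aged kidneys, and 12.5% fell and 10.7% rose in young kidneys. Of 16 other SREBP-responsive genes, 5 fell and 0 rose in aged kidneys and 7 fell and 2 rose in young kidneys, with medians of -0.18 and -0.21. Fasn, the fatty acid synthase, changed by -1.09 (aged, adjusted p = 0.0214) and -1.18 (young, adjusted p = 0.000114). Acly, which supplies cytosolic acetyl-CoA, changed by -0.30 and -0.41, and Me1, which supplies NADPH, by -0.34 and -0.37, with all 4 values past the threshold. The desaturase gene Fads2 was at -0.36 in aged kidneys (adjusted p = 0.110) and fell in young kidneys (-0.92, adjusted p = 0.000282). The test of the difference between the ages passed for 0 of the 16 and for 2.44% of all genes, so nothing is read from this count.

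The branches that draw on farnesyl and geranylgeranyl diphosphate were measured through 12 genes of ubiquinone, dolichol and prenylated protein synthesis. Of these, 3 fell and 1 rose in aged and 5 fell and 1 rose in young kidneys. Over all genes 9.16% rose or fell in aged and 23.2% in young kidneys, and these counts too are not read as a result about the list. Dhdds, of dolichol synthesis, changed by -0.38 in aged and -0.53 in young kidneys, and Pdss2, of ubiquinone synthesis, by -0.48 and -0.42, past the threshold each time. Nus1, the partner of Dhdds, lay at -0.04 in aged kidneys (adjusted p = 0.893) and fell in young kidneys (-0.44, adjusted p = 0.00219). Rabggtb, a subunit of the enzyme that prenylates RAB proteins, rose by 0.53 in aged and 0.40 in young kidneys. Of 7 genes of sterol-regulated degradation in the endoplasmic reticulum, 2 rose and 0 fell in aged and 0 rose and 3 fell in young kidneys. These counts rest on few genes, with Erlin1 at the threshold in aged kidneys, and are not read as a result about the list. Erlin1, whose product binds sterol-regulated targets there, was at 0.26 in aged (adjusted p = 0.05) and -0.31 in young kidneys (adjusted p = 0.0201), with a difference that passed (adjusted p = 0.00763). Ufd1 rose in aged kidneys (0.34, adjusted p = 0.0146), and Erlin2 (-0.24, adjusted p = 0.0166) and Syvn1 (-0.35, adjusted p = 0.0313) fell in young kidneys.

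Of 15 other sterol transport genes, 2 rose and 1 fell in aged and 3 rose and 2 fell in young kidneys, beside 9.16% (aged) and 23.2% (young) of all genes that rose or fell, so nothing particular to this list is read from its counts. Lipa, the lysosomal lipase that frees cholesterol from its esters, fell by 0.31 in aged (adjusted p = 0.0226) and by 0.67 in young kidneys (adjusted p = 6.58e-05), and Scarb2, a lysosomal membrane protein, rose by 0.52 and 0.35 (adjusted p = 0.000563 and 0.00430). In young kidneys Osbpl8 fell (-0.32, adjusted p = 0.00566) and the lipoprotein receptor gene Scarb1 rose (0.44, adjusted p = 0.0120). Scarb1 was at 4.01 to 4.51 in ad libitum fed young mice, near the median of all probe sets on these arrays. Of 6 enzymes that oxidise sterols, 2 rose and 0 fell in aged and 3 rose and 1 fell in young kidneys, and these counts too are not read as a result about the list. Cyp27a1, the mitochondrial sterol hydroxylase, rose by 0.62 in aged (adjusted p = 0.000716) and 0.96 in young kidneys (adjusted p = 0.000166). Cyp7b1, which clears oxysterols, lay at -0.65 in aged kidneys (adjusted p = 0.0541) and fell in young kidneys (-0.76, adjusted p = 2.71e-05). Cyp46a1 rose in aged (0.52, adjusted p = 0.00300) and Cyp39a1 in young kidneys (0.52, adjusted p = 0.000695). Cyp46a1 was at 3.06 to 3.44 in ad libitum fed and 3.63 to 3.90 in fasted aged mice, near the median of all probe sets on these arrays.

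Some markers of several cell types also rose or fell on the same arrays. Over all genes 9.16% rose or fell in aged and 23.2% in young kidneys. With so few markers to a cell type, counts near these shares are not read as changes of a cell type. Of 5 macrophage markers, 1 fell in aged and 4 fell in young kidneys, where their median level was 5.38 to 5.75 in fasted mice, against 5.97 to 6.30 in ad libitum fed mice. Of 5 brown adipocyte markers, 0 rose in aged and 3 rose in young kidneys (median level 3.42 to 5.65 in fasted young mice, against 3.37 to 3.87 in ad libitum fed young mice). Of 3 distal tubule and 4 proximal tubule markers, 2 each fell at both ages. In young kidneys 2 of 5 collecting duct markers, Aqp2 (-0.53, adjusted p = 0.0253) and Slc26a4 (-0.40, adjusted p = 0.0208), 1 of 3 markers of the thick ascending limb, Cldn16 (-0.26, adjusted p = 0.0280), and 1 of 4 endothelial markers, Kdr (-0.27, adjusted p = 0.0272), also fell, and 0 of these 12 passed in aged kidneys. Of 2 podocyte and 2 white adipocyte markers 0 passed at either age. Of 6 hepatocyte markers, 0 changed in aged kidneys, and 1 rose and 1 fell in young kidneys. The part of these cells in the changes of the pathway was not tested.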

How the data were processed

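Total RNA from kidneys of 19 male mice was measured on microarrays (Affymetrix HT MG-430 PM). Per the paper's methods, samples with a low RNA integrity number were excluded, and normalization used the RMA algorithm through an online pipeline whose version is not given in the sources used here. The authors deposited log2 values for 45141 probe sets in one table. Medians of the arrays are alike within an age and unlike between ages, so aged and young arrays seem to have been normalized separately. Such values carry no read depth, and the number of arrays limits the precision.

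Probe sets were named from the platform annotation, in which 28898 carry 1 gene symbol, 551 several and 15692 are not listed. Each gene is represented by its brightest single-gene probe set (mean of 19 arrays), and 14 of the 27 genes had several. Some genes of the pathway are not reported here. Fasted and ad libitum fed mice were compared within each age with limma 3.58.1 in R 4.3.3 (linear model, moderated variance, two-sided), and the difference of the 2 effects, aged minus young, in one fit of 4 group means to all 19 arrays. Adjusted p-values follow Benjamini and Hochberg across the full table of probe sets, and intervals are 95% intervals of the fit before adjustment. The paper's methods name an ANOVA, which was run as the ordinary test without moderation. Per the paper's methods aged males were housed singly, and litters are not given, so p-values measure the spread between these mice. In simulated data with 200 probe sets changed by 1 log2 unit among 45141, the fit recovered 196 for aged, 195 for young and 183 for the difference, with 11, 6 and 14 unchanged probe sets called.

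The genes, the related lists and the marker lists were chosen with earlier results of these data known. All listed genes are named, and of each related list up to 4 with the smallest adjusted p at either age. The panels of the plots by mouse and by probe set, the printed promoters and the set of promoters restricted to genes on the arrays were chosen after values were seen. Alternatives were an ordinary test, other arrays in the fit, array quality weights, variance trend with robust fitting, quantile normalization within each age, centring on array medians, removal of the dimmest 40 percent of probe sets, the mean of a gene's probe sets, adjustment over 1 probe set per gene, other thresholds and leaving out each mouse. Serum, histology and survival were not analysed here.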

Additional observations from a re-analysis of the deposited data

Results flagged for a closer look

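Of 108 groups of 4 or 5 mice (27 genes in 4 groups), 6 held a mouse set far apart from the rest of its group; a test of this kind marks about 1 group in 20 by chance. Hmgcs1 was at 6.75 in fasted aged mouse 38, with the next highest at 6.17, and Insig1 at 6.91 and Npc2 at 10.32 in ad libitum fed aged mouse 40, with the next highest at 6.52 and 10.02. In fasted young mice Lbr was at 8.39 in mouse 343 (next 8.22) and Srebf2 at 5.17 in mouse 339 (next 5.43). In ad libitum fed young mouse 346 Sqle was at 8.85 (next 9.11).

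The fasting effect differed between the ages, by the test of the difference itself, for Cyp51 (aged minus young 1.28), Idi1 (1.16), Fdps (0.95), Hsd17b7 (0.68) and Msmo1 (0.64). Age, strain, body weight and a normalization that seems to have been done for each age cannot be told apart in these differences.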

How the results depend on the processing

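No paired analysis was possible because the replicate numbers are mouse numbers, none of which is shared by 2 groups. The methods describe matching mice in pairs for weight and sex before a diet was assigned, but the labels name no pairs, so any matching of the array mice could not be used. With a fold change of at least 1.5 required as well, 1 gene rose in aged kidneys instead of 2, and 8 fell in young kidneys instead of 16. The positive differences between the ages were 3 instead of 5 under the ordinary test without moderation and 3 at an adjusted p of at most 0.01. Leaving out 1 mouse at a time gave 7 to 10 genes that fell and 2 to 3 that rose in aged kidneys, 15 to 17 that fell and 1 to 2 that rose in young kidneys, and 3 to 6 positive and 0 negative differences. No gene that passed changed its direction in any of these settings. Mvk, Sqle (aged), Insig1, Mbtps1 and the differences of Fdps and Msmo1 missed the threshold in some settings, and Scap, Npc2, Srebf2, Fdps, Fdft1 and Sc5d (aged), Lss and Hmgcs1 (young) and the differences of Sqle and Stard4 passed in some; the cause was not tested. Under the ordinary test Mvk (adjusted p = 0.127) and Sqle (adjusted p = 0.0793) did not pass in aged kidneys. Scap passed in 5 of the other settings for aged and 6 for young kidneys, and Npc2 in 7 for aged kidneys. Lss and Cyp46a1 in ad libitum fed aged mice, Scarb1 in ad libitum fed young mice and the dimmest probe sets lie near the array medians, which limits the precision of their changes.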
